A study of Mus musculus with 6 samples.

Results

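The type I interferon response was described here with 35 genes in brown adipose tissue (BAT), the heat-producing fat depot, of mice fed a high-fat diet (HFD) or a low-fat diet (LFD). The 35 genes were looked up by symbol among the 47729 genes of the files, and all 35 were found and passed the filter on low counts. They had been selected on their interferon biology and on the HFD-to-LFD difference in these same 6 mice, so that their diet difference is given as a description and not as a result of a test. Male wild-type C57BL/6J mice, aged 6 weeks at the start and 10 weeks at the end, were fed for 4 weeks with an HFD of 45% fat (n = 3) or with a standard low-fat rodent diet (n = 3). Total RNA from the right interscapular BAT of each mouse was depleted of ribosomal RNA and sequenced as 1 library per mouse. The sequenced mice were picked to span the range of adiposity within their diet, and the labels do not tie a replicate number to adiposity.

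Type I interferons, the Ifna family and Ifnb1, are secreted proteins released when a cell senses foreign or misplaced nucleic acid. They bind the receptor chains Ifnar1 and Ifnar2, which nearly every cell carries, and the kinases Jak1 and Tyk2 then phosphorylate Stat2. With Irf9 it enters the nucleus in a complex that binds the interferon-stimulated response element and switches on antiviral genes, many of which also respond to interferon gamma. In fat, adipocytes, endothelial cells and macrophages can all mount this response, and a bulk RNA sample does not show which cell the RNA came from.

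The libraries differed in tissue markers, and these values stand beside every result below. Ucp1, the defining gene of brown fat and named here after its values were seen, stood at 2728, 4021 and 796 TPM (transcript share per library, corrected for gene length) in the HFD mice, replicates 1, 2 and 3. LFD replicate 1 had 443 TPM of Ucp1, and LFD replicates 2 and 3, at 11.0 and 76.0, held little of this marker although their labels say BAT. Of the 12 genes listed as brown adipocyte markers, 9 had a higher fitted level in HFD, against 45.6% of all tested genes, and 3 a lower one. Their median log2 fold change, HFD over LFD, was 1.35. Led by Fabp4, which was 1 of the 3 lower genes, the 12 summed to 6232 to 13544 TPM in HFD and 3626 to 13200 TPM in LFD. That sum did not follow Ucp1. In LFD replicate 2, where Ucp1 was at 11.0, the sum was 10897 TPM, of which Fabp4 made up 7354. The 20 skeletal muscle markers, led by Acta1, were all lower in HFD, at 28.7 to 402.5 TPM in sum against 2291 to 15823 TPM in LFD, and Myh7 had no count in HFD replicates 2 and 3. None of the 20, and 0 of all tested genes, was under an adjusted p of 0.05 in edgeR's quasi-likelihood test. In the blocked fit, which pairs mice by replicate number and was chosen from the data, 14 were. Of all 17668 tested genes, 184 were under it in that fit, 29 of them higher in HFD. The part of muscle RNA or of low Ucp1 in the members' values was not tested.

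Levels are given as log2 CPM, the log2 of a gene's share of the counts of its library, scaled with TMM factors, which adjust each library to a common composition. Fold changes are HFD over LFD on the log2 scale from edgeR's quasi-likelihood fit across 17668 genes, with the standard error (±). The values of a diet's 3 mice are always given in the order of replicates 1, 2 and 3. Of the 35 genes, 34 had a higher fitted level in HFD-fed mice, against 45.6% of all tested genes, and the median log2 fold change was 0.85, against -0.05 over all tested genes. The exception was Ifi27l2a. No member was called at an adjusted p under 0.01 with an absolute log2 fold change above 1.5, and the call rate over all genes was 0%. Before adjustment, 14 members had p under 0.05, all of them higher in HFD, against 3.86% of all genes in that direction. The lowest adjusted p of a member in edgeR's quasi-likelihood test was 0.191. The 3 HFD values lay above all 3 LFD values for 17 members (6.72% of all genes) and overlapped for the other 18. Since the genes were chosen on this contrast, nothing is read from these shares.

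The replicate numbers were taken to pair the mice, as same-numbered mice of the 2 diets deviated together in these same values. The labels do not state a pairing, so the block below was chosen from the data and is not part of the stated design. In 32 of the 35 members the HFD mouse was above the LFD mouse of its number in all 3 pairs (21.1% of all genes). With the replicate number as a block, 28 members had an unadjusted p under 0.05 (8.75% of all genes were at such a p and higher). The blocked fit put Cmpk2 (adjusted p = 0.0306) and Rsad2 (adjusted p = 0.0382) under an adjusted p of 0.05 in edgeR's quasi-likelihood test, where 0.164% of all genes were under it and higher. DESeq2 called the same 2 genes at the thresholds above, Rsad2 with an adjusted p of 0.000938 and Cmpk2 with 0.00337, against 0.523% of all genes called higher.

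**Figure D1:**
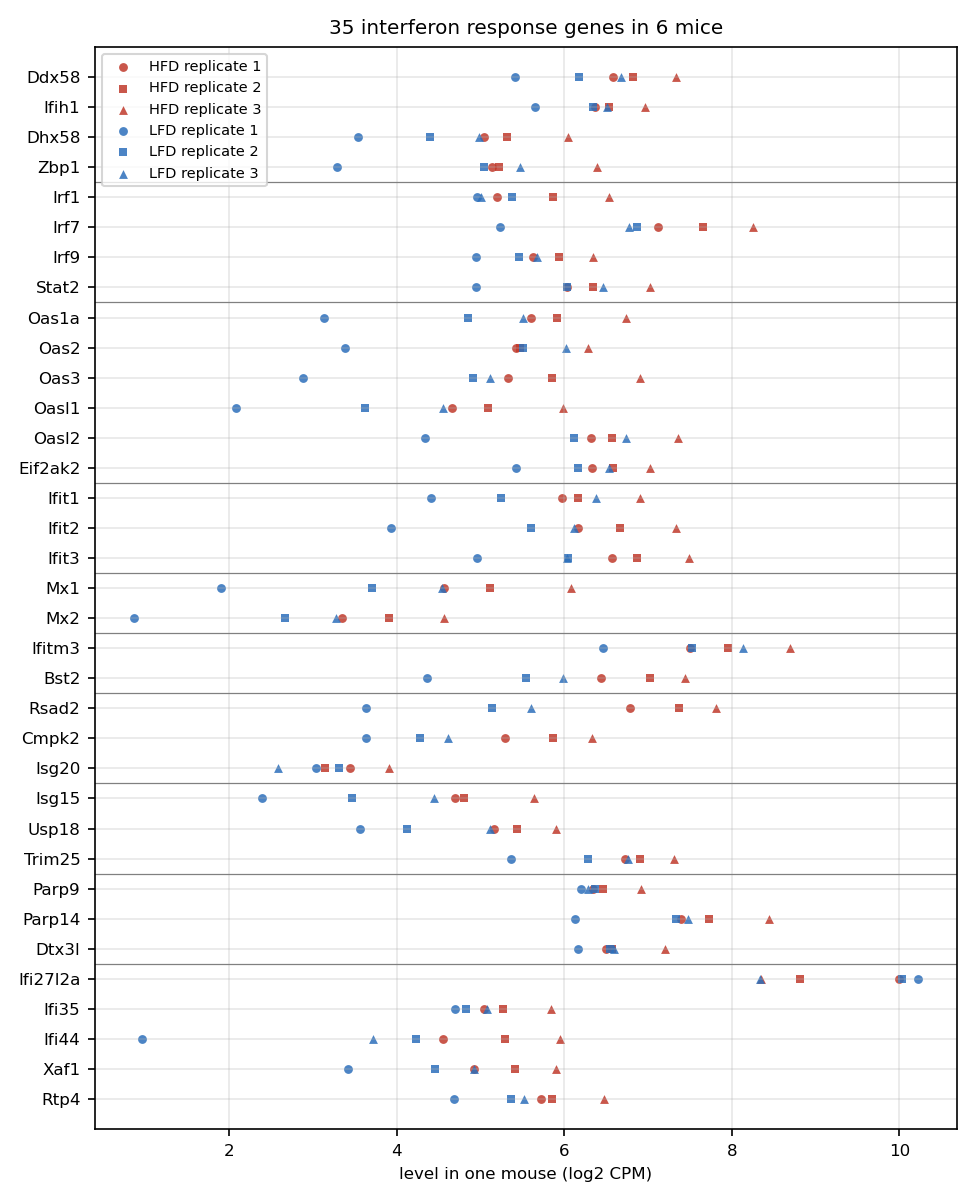
Level of each of the 35 genes in each mouse, in log2 CPM, with HFD mice in red and LFD mice in blue and the marker shape giving the replicate number; grey lines part the groups of genes by role. HFD replicate 3 is the rightmost point for 34 genes and LFD replicate 1 the leftmost for 33.

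The mice were ordered alike across nearly all members. HFD replicate 3 had the highest of the 6 values in 34 members (19.5% of all genes), and LFD replicate 1 had the lowest in 33 (31.8% of all genes). Averaged over the 34 members other than Ifi27l2a, the level was 5.70, 6.03 and 6.69 log2 CPM in the HFD mice. The same average was 4.12, 5.26 and 5.62 in the LFD mice. HFD replicate 1 and LFD replicate 3 were thus next to each other in the order, and HFD replicate 1 was the lower of the pair in 14 members. The median range among the LFD mice was 1.56 on the log2 scale, wider than the 1.0 among the HFD mice. A larger SD in LFD than in HFD was seen in 29 members, and also in 77.3% of all tested genes. For 29 members the LFD range exceeded the fold change itself, which was also so for 86.2% of all genes.

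Rsad2 (viperin, an enzyme that makes a chain-terminating nucleotide) had the largest fold change of the members. It lies at chr12:26442746-26456452 on the minus strand, and its level was 6.78, 7.37 and 7.81 log2 CPM in the HFD mice. In LFD replicates 1, 2 and 3 it was 3.64, 5.14 and 5.60. Every HFD mouse lay more than 1 log2 unit above every LFD mouse, and Rsad2 was the single member whose diets did not overlap in TPM either, where 1.65% of all genes lay fully above. The log2 fold change was 2.38 ± 0.54, a fold of 5.20, with an adjusted p of 0.198 in edgeR's quasi-likelihood test. Cmpk2, the mitochondrial nucleotide kinase that supplies viperin's substrate, starts 12751 bases away on the plus strand (chr12:26469204-26479837). Its level was 5.29, 5.87 and 6.33 log2 CPM in the HFD mice, and 3.63, 4.28 and 4.61 in the LFD mice. The diets of Cmpk2 did not overlap in log2 CPM, and its log2 fold change was 1.67 ± 0.37 (adjusted p = 0.191 in edgeR's quasi-likelihood test). Isg20, an exonuclease that degrades RNA, completes this group of nucleotide and RNA degrading enzymes. It differed from the usual order, with 3.45, 3.15 and 3.91 log2 CPM in the HFD mice and 3.04, 3.31 and 2.58 in the LFD mice. Its diets overlapped, and its log2 fold change was 0.54 ± 0.32.

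The DNA just before the start of a gene is where interferon-driven factors bind. The 200 bases before the RefSeq start (GRCm38.p6) are shown for a choice of members, made by fold change or by motif and complete on neither. They are written 5′ to 3′ on the strand of the gene. Capitals mark matches to GAAA followed by any 2 bases and GAAA again, the core of the interferon-stimulated response element, or to TTCNNNGAA, the gamma-activated site through which interferon gamma acts, on either strand; N is any base.
Rsad2: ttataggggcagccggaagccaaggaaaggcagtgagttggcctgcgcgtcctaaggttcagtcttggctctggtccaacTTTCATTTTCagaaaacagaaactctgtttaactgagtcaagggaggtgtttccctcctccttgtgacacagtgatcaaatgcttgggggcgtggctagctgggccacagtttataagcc
Cmpk2: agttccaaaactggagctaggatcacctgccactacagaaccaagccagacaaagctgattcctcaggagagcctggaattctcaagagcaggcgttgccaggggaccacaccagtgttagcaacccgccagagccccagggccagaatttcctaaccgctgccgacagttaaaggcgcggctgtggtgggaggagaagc
Isg15: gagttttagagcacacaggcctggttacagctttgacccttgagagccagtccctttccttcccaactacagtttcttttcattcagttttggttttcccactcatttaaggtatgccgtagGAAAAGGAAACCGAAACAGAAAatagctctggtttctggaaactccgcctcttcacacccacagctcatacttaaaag
Ifit1: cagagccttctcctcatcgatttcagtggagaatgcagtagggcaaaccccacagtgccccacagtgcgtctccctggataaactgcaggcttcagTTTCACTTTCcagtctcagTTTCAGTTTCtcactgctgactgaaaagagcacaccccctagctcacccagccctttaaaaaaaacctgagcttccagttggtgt
Ifit3: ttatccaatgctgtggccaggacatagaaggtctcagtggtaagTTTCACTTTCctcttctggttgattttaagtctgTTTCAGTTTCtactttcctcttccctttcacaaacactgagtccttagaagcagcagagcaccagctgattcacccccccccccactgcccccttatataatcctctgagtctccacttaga
Bst2: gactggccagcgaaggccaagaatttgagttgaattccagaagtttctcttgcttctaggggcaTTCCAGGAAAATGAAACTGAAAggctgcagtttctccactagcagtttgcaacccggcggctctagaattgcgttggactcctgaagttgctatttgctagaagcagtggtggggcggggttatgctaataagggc
Irf1: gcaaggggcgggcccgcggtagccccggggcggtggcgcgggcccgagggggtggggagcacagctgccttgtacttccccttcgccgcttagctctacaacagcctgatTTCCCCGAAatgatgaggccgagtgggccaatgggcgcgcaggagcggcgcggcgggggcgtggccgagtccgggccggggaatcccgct
The windows are chr12:26456453-26456652 on the minus strand for Rsad2, chr12:26469015-26469214 on the plus strand for Cmpk2, and chr4:156200819-156201018 on the minus strand for Isg15. Those of Ifit1 and Ifit3 are chr19:34640689-34640888 and chr19:34583329-34583528, both on the plus strand. Bst2 is shown at chr8:71537473-71537672 on the minus strand, and Irf1 at chr11:53769814-53770013 on the plus strand. Positions count back from -1, the base just before the start.

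Ifit1 and Ifit3 carried the same pair of letters, TTTCACTTTC followed by TTTCAGTTTC, at -104 to -95 and -85 to -76 in Ifit1 and at -156 to -147 and -122 to -113 in Ifit3. Isg15 held 3 matches that overlap one another, from -78 to -57. Bst2 held 2 overlapping core matches from -130 to -115, which in turn overlap a gamma-activated site at -136 to -128. Rsad2 had 1 core match, at -120 to -111. No exact core match lay in the window of Cmpk2 or of Irf1, and Irf1 held a gamma-activated site at -90 to -82. Of members high by fold change but not shown, Ifi44 and Oasl1 had no exact core match and Oas3 had 1. The core match shared by most members was GAAACTGAAA, which, read on one strand or the other, was found in 5, Ifit1, Ifit3, Bst2, Oas1a and Stat2.

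RefSeq windows of 250 bases before to 50 after the start were matched for 25 of the 35 members. The members with no window were Dhx58, Zbp1, Oas2, Mx1, Mx2, Usp18, Parp9, Parp14, Ifi27l2a and Rtp4. Some genes have several windows, 30 in all for these members, and a gene was counted once if any of its windows held the motif. An exact core match was found in 12 of the 25 members (48.0%), against 3.99% of all 27025 genes with a window. With 1 mismatch allowed, these shares were 92.0% (23 of 25) and 38.9%. A gamma-activated site was found in 8 of the 25 (32%), against 9.55% of all genes. Over all 32851 windows the shares were 3.443%, 35.445% and 8.298%, in the same order. The median log2 fold change was 1.05 for the 12 members with an exact core and 0.85 for the 13 without, and no test was made of this. A match of letters is not a bound site, and these shares are a description.

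Of the sensors of foreign RNA and DNA, all 4 were higher in HFD, with a median log2 fold change of 0.81. Dhx58, a helicase that tunes the other RNA helicases, had 5.04, 5.32 and 6.05 log2 CPM in the HFD mice and 3.54, 4.40 and 4.98 in the LFD mice. The diets of Dhx58 did not overlap, although HFD replicate 1 and LFD replicate 3 were close, and its log2 fold change was 1.11 ± 0.43. Ddx58 (RIG-I, which binds viral RNA ends) and Ifih1 (a sensor of long double-stranded RNA) had log2 fold changes of 0.77 ± 0.38 and 0.43 ± 0.30. Zbp1, a sensor of left-handed nucleic acid that can start necroptosis, had 0.85 ± 0.60. In these 3 genes LFD replicate 3 lay above HFD replicate 1.

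The transcription factors were all higher in HFD too. Irf7, the factor that amplifies interferon transcription, had the largest difference of the 4. Its level was 7.12, 7.66 and 8.25 log2 CPM in the HFD mice, and 5.24, 6.87 and 6.77 in the LFD mice. The diets did not overlap, and the log2 fold change was 1.29 ± 0.50 (adjusted p = 0.445 in edgeR's quasi-likelihood test). Irf1, which interferon gamma induces strongly, had a narrow range in the LFD mice, with 4.96, 5.38 and 5.01 log2 CPM in replicates 1, 2 and 3. In HFD replicates 1, 2 and 3 it had 5.20, 5.87 and 6.54, so that HFD replicate 1 lay inside the LFD range and the log2 fold change was 0.85 ± 0.36. Stat2 and Irf9, partners in the complex that binds the response element, had log2 fold changes of 0.58 ± 0.44 and 0.61 ± 0.29, and their diets overlapped. Exons of Irf1, Irf7 and Irf9 overlap those of a neighbouring gene by 135, 45 and 123 bases.

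The next group holds oligoadenylate synthetases, the synthetase-like genes Oasl1 and Oasl2, and Eif2ak2 (PKR), which halts translation when it binds double-stranded RNA. Active synthetases make a messenger that activates RNase L, and an RNA level does not show such activity. All 6 genes of this group were higher in HFD, with a median log2 fold change of 1.08 and 3 of them without overlap. Oasl1 had 4.66, 5.09 and 5.99 log2 CPM in the HFD mice and 2.09, 3.62 and 4.55 in the LFD mice, with a log2 fold change of 1.63 ± 0.64. Oas3 had 5.33, 5.86 and 6.90 in the HFD mice and 2.88, 4.91 and 5.11 in the LFD mice, with a log2 fold change of 1.60 ± 0.65. Oas1a stood at 1.38 ± 0.60, also without overlap, though RSEM's posterior SD reached 4.39% of its count in 1 mouse. The LFD mice were far apart in these 3 genes, with LFD replicate 1 well below the other two.

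Oas2 had the highest adjusted p of the members, 0.886 in edgeR's quasi-likelihood test. Its level was 5.43, 5.47 and 6.28 log2 CPM in the HFD mice, and 3.38, 5.51 and 6.02 in the LFD mice. LFD replicates 2 and 3 lay above HFD replicates 1 and 2, and the log2 fold change of 0.45 ± 0.62 became -0.01 without LFD replicate 1. Oasl2 and Eif2ak2 had 0.79 ± 0.60 and 0.56 ± 0.35, with overlap. Oas3 and Oas2 lie 3244 bases apart on the minus strand of chromosome 5, and Oasl2 lies 11005 bases from Oasl1 on the same chromosome.

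The 3 Ifit genes, whose proteins bind foreign RNA caps and block their translation, lie in a row on chromosome 19. Ifit3 had 6.57, 6.87 and 7.49 log2 CPM in the HFD mice and 4.96, 6.05 and 6.03 in the LFD mice. Its diets did not overlap, and its log2 fold change was 1.27 ± 0.39 (adjusted p = 0.334 in edgeR's quasi-likelihood test). Ifit2, 7111 bases upstream of Ifit3, had 6.17, 6.67 and 7.34 in the HFD mice and 3.93, 5.60 and 6.12 in the LFD mice. The diets of Ifit2 did not overlap but nearly met, and its log2 fold change was 1.34 ± 0.57. Ifit1 had 5.97, 6.17 and 6.91 in the HFD mice and 4.41, 5.25 and 6.38 in the LFD mice. In Ifit1 LFD replicate 3 lay above 2 of the HFD mice, and the log2 fold change was 0.84 ± 0.52, while its window, shown above, holds the same pair of core matches as that of Ifit3.

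Mx GTPases can trap viral ribonucleoproteins, and an RNA level does not show that a working protein is made. Mx1 had 4.57, 5.11 and 6.08 log2 CPM in the HFD mice and 1.90, 3.71 and 4.54 in the LFD mice, with a log2 fold change of 1.66 ± 0.69. Mx2, annotated as a polymorphic pseudogene in GENCODE M21, had 3.35, 3.91 and 4.57 in the HFD mice and 0.87, 2.67 and 3.28 in the LFD mice, with 1.46 ± 0.63. Neither gene's diets overlapped, but HFD replicate 1 and LFD replicate 3 were nearly equal in both. At the cell membranes, Bst2 (tetherin, which holds budding virus at the surface) had 6.44, 7.03 and 7.44 log2 CPM in the HFD mice and 4.36, 5.54 and 5.99 in the LFD mice. The diets of Bst2 did not overlap, the log2 fold change was 1.59 ± 0.47, and the adjusted p was 0.312 in edgeR's quasi-likelihood test and 0.0393 in DESeq2. Ifitm3, which blocks virus entry from endosomes, had a log2 fold change of 0.61 ± 0.51, and LFD replicate 3 (8.14) exceeded HFD replicates 1 (7.50) and 2 (7.96).

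In the ubiquitin-like system, Isg15 is attached to newly made proteins and Usp18 removes it and also quiets the receptor. Isg15 had 4.70, 4.80 and 5.64 log2 CPM in the HFD mice and 2.40, 3.47 and 4.45 in the LFD mice. Its log2 fold change was 1.45 ± 0.54 and its diets did not overlap. Usp18 had 5.16, 5.44 and 5.90 in the HFD mice and 3.56, 4.12 and 5.12 in the LFD mice, for a log2 fold change of 1.13 ± 0.43 and no overlap. Trim25, the ligase that ubiquitinates RIG-I, overlapped between the diets and had 0.75 ± 0.38.

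The smallest positive differences were in Parp9 and Dtx3l, whose proteins form an ADP-ribosylation and ubiquitin complex that raises interferon responses. Parp9 had 6.34, 6.46 and 6.92 log2 CPM in the HFD mice and 6.20, 6.37 and 6.28 in the LFD mice, with a log2 fold change of 0.31 ± 0.23. Dtx3l had 0.34 ± 0.28. These neighbours on chromosome 16 are transcribed from opposite strands and share up to 458 exon bases, and whether the counting used strand is not given in the sources used here. Parp14, another ADP-ribosyltransferase of the same cluster, had 0.83 ± 0.45 with overlapping diets.

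Among the other members, Ifi44, a cytoplasmic protein that limits virus growth, had the second largest fold change. Its level was 4.55, 5.29 and 5.95 log2 CPM in the HFD mice, and 0.96, 4.23 and 3.72 in the LFD mice. LFD replicate 1 held 29 counts of Ifi44 against 268 to 1441 in the other mice, and the LFD SD of 1.76 was the largest of all members. The log2 fold change was 1.88 ± 0.78, and 1.38 to 2.46 over the fits that leave out 1 mouse. Xaf1, which promotes apoptosis, had 1.07 ± 0.43, and Rtp4, a receptor chaperone that dampens interferon signalling, had 0.82 ± 0.32, both without overlap. For Xaf1 the diets nearly met, with 4.93 log2 CPM in HFD replicate 1 and 4.92 in LFD replicate 3. Ifi35, which helps to regulate the RNA sensor pathway, had 0.55 ± 0.27 with overlap.

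Ifi27l2a, a small protein of the mitochondrial and nuclear membranes, was the most abundant member and ran against the rest. On the TPM scale, which corrects for gene length and so allows genes to be compared, it stood at 2092, 1515 and 1129 in the HFD mice. In LFD replicates 1, 2 and 3 it stood at 2706, 4053 and 1428 TPM. LFD replicate 1, lowest in 33 members, was the highest mouse for Ifi27l2a in log2 CPM (10.22). Its log2 fold change was -0.52 ± 0.64, between -1.14 and -0.18 over the fits that leave out 1 mouse. The summed TPM of all 35 members was 3176, 3812 and 4846 in the HFD mice and 3181, 5693 and 3875 in the LFD mice. That sum was carried by Ifi27l2a, and without it the sum was 1084, 2298 and 3718 in HFD against 474.7, 1640 and 2447 in the LFD mice.

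Apart from Ifi27l2a, 3 members averaged above 100 TPM over the 6 mice, with Ifitm3 at 515, Irf7 at 181 and Bst2 at 162. Most members, 30 of them, averaged 10 to 100 TPM, and Mx2 averaged 7.71. Rsad2, first by fold change, was 14th by level, with 32.3, 74.3 and 100.1 TPM in the HFD mice and 4.26, 15.9 and 27.0 in the LFD mice. No count of a member in a mouse was under 27, and 30 members had at least 100 counts in every mouse.

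**Figure D2:**
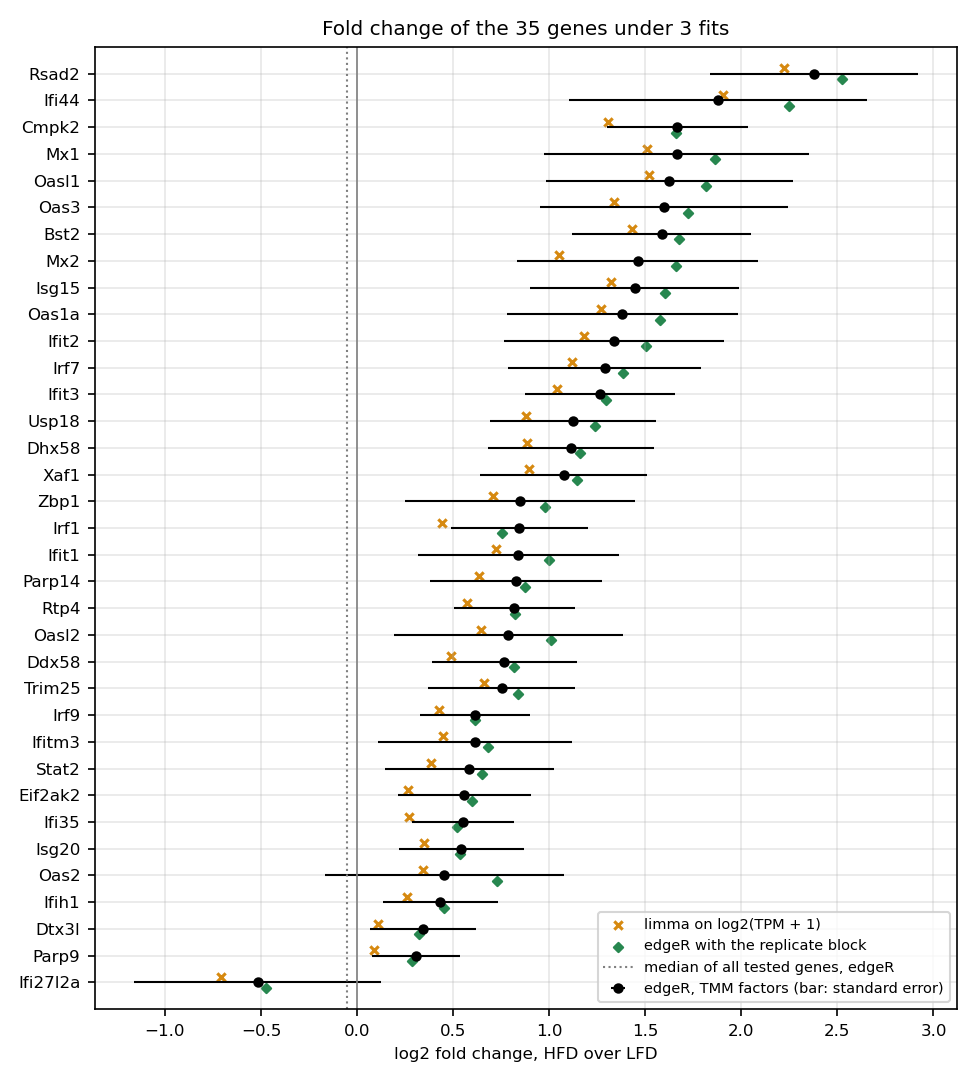
Log2 fold change (HFD over LFD) of each of the 35 genes, ordered by edgeR's value; black points with bars are edgeR's value and its standard error, orange crosses are differences of log2(TPM + 1) and green diamonds are edgeR with the replicate block. All genes but Ifi27l2a lie to the right of 0 under the 3 fits, from 0.31 (Parp9) to 2.38 (Rsad2) in edgeR's first fit, and the TPM values lie mostly to the left of edgeR's.

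The separation of the diets depended on the scaling, while the direction did not. With RLE, upper quartile or no factors, without mitochondrial genes, in DESeq2 and in TPM, 34 members were higher in HFD each time. With RLE factors and in DESeq2, 21 members had diets that did not overlap (6.96% and 5.47% of all genes lay fully above). Without mitochondrial genes 16 did (6.23%). With upper quartile factors 10 did (6.47%), without normalization factors 2 did (4.37%), and on the TPM scale 1 did (1.65%). In TPM, HFD replicate 1 lay below LFD replicate 3 in 32 members. The median log2 fold change was 0.70 on the log2(TPM + 1) scale, where the median of all genes was -0.18. HFD replicate 1 had 22.7% of its counts on mitochondrially encoded genes and LFD replicate 3 had 3.87%, and these shares ran from 8.50% to 16.5% in the other 4 mice. In each same-numbered pair the HFD mouse had the larger share. Without mitochondrial genes the median log2 fold change was 0.83, and beyond that fit the part of these shares in the members' values was not tested. Leaving out 1 mouse moved the median log2 fold change to 0.55 without HFD replicate 3, to 0.60 without LFD replicate 1 and to 1.34 without LFD replicate 3, and in the other 3 cases it was 0.94 to 1.07. Leaving out both LFD mice with little Ucp1, an alternative chosen after seeing the data, compares the HFD mice with LFD replicate 1 alone, the lowest mouse for most members, and takes its spread from the HFD mice. It left 34 members higher, at a median of 1.99, with 29 at an unadjusted p under 0.05 (12.6% of all genes in that fit were at such a p and higher) and 0 called.

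The ligands were nearly undetected. Of 18 type I interferon genes, 14 had no count in any mouse, among them Ifnb1, and 4 had a few reads. Ifnk, a keratinocyte interferon, had 2 to 8 counts in every mouse and Ifnz, a little-studied type I member, had 1 to 10. Ifna13 had 1 count, in LFD replicate 1, and Ifnab had 1 count in HFD replicate 1 and 2 in LFD replicate 3. A count of 0 in 1 library allows up to 3 counts, or 0.139 to 0.175 CPM across the mice, for counting error only. Ifng, the type II interferon, had 1, 7 and 5 counts in the HFD mice and 0, 2 and 0 in the LFD mice, too few to be tested. The type III ligands Ifnl2 and Ifnl3 had no count.

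The receptors and kinases had a median log2 fold change of 0.32 and 0.26. Ifnar1 and Ifnar2 had log2 fold changes of 0.35 ± 0.30 and 0.30 ± 0.24. The interferon gamma receptor chains Ifngr1 and Ifngr2 had -0.58 ± 0.32 and 0.26 ± 0.31, and Ifnlr1, of the type III receptor, 0.74 ± 0.65. Il10rb, the chain that type III interferons share with interleukin 10, had 0.76 ± 0.30, with no overlap of the diets (adjusted p = 0.447 in edgeR's quasi-likelihood test). Among the kinases, Jak1 had -0.25 ± 0.27, Jak2 0.26 ± 0.27 and Tyk2 0.31 ± 0.29.

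Across 73 other genes of the pathway (these ligands, receptors and kinases, and the lists below), 46 could be tested. At an unadjusted p under 0.05 there were 7, all higher in HFD, against 3.86% of all genes in that direction. No gene of these lists passed an adjusted p of 0.05 in edgeR's quasi-likelihood test, the lowest being 0.188. Of 12 genes that sense danger and induce interferon, 11 were higher in HFD, with a median log2 fold change of 0.52. The largest were Irf5, a factor downstream of Toll-like receptors (1.31 ± 0.47), Ikbke, a kinase that activates Irf3 (1.10 ± 0.64), and Tlr9, the DNA sensor of endosomes (1.04 ± 0.64). Of 8 negative regulators, 6 were higher and the median was 0.56. Ptpn6 (SHP-1, a phosphatase of blood cells) had 1.55 ± 0.61, Trex1, a DNA exonuclease, had 1.07 ± 0.54, and Socs3, an inhibitor of JAK kinases, had 0.76 ± 0.76.

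Genes that respond mainly to interferon gamma were higher in HFD as well. Of 8 such genes 7 could be tested and all 7 were higher in HFD, with a median log2 fold change of 1.11. Of the 7, 3 had an unadjusted p under 0.05 (3.86% of all genes were at such a p and higher). In 4 the diets did not overlap (6.72% of all genes lay fully above). Cxcl10, a chemokine that both kinds of interferon induce, had 4.08, 4.60 and 5.92 log2 CPM in the HFD mice and 0.92, 2.38 and 3.20 in the LFD mice. Its log2 fold change was 2.66 ± 0.71, larger than that of any member (adjusted p = 0.266 in edgeR's quasi-likelihood test, and 0.0306 with the replicate block). Cxcl9, the more gamma-specific chemokine, had 5.36, 5.90 and 7.13 in the HFD mice and 3.66, 4.45 and 3.63 in the LFD mice, with 2.37 ± 0.52. Gbp2, a GTPase that attacks vacuoles of microbes, had 1.23 ± 0.48 and its diets overlapped. These lists were chosen with earlier results of the same mice known, and no test of the list against the members was made.

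Near copies of the members were read for the same pattern. Of 10 that could be tested, 8 were higher in HFD, with a median log2 fold change of 0.85. In 4 the diets did not overlap, against 6.72% of all genes that lay fully above. Ifit1bl1 had 2.18 ± 0.98 (2 counts in LFD replicate 1), Oas1g 1.32 ± 0.62 and Ifit3b 1.22 ± 0.41. Oas1g and Ifit3b are close in sequence to Oas1a and Ifit3, and RSEM's split of shared reads was uncertain by up to 28.8 reads for Oas1a and 21.1 for Ifit3, as a posterior SD.

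**Figure D3:**
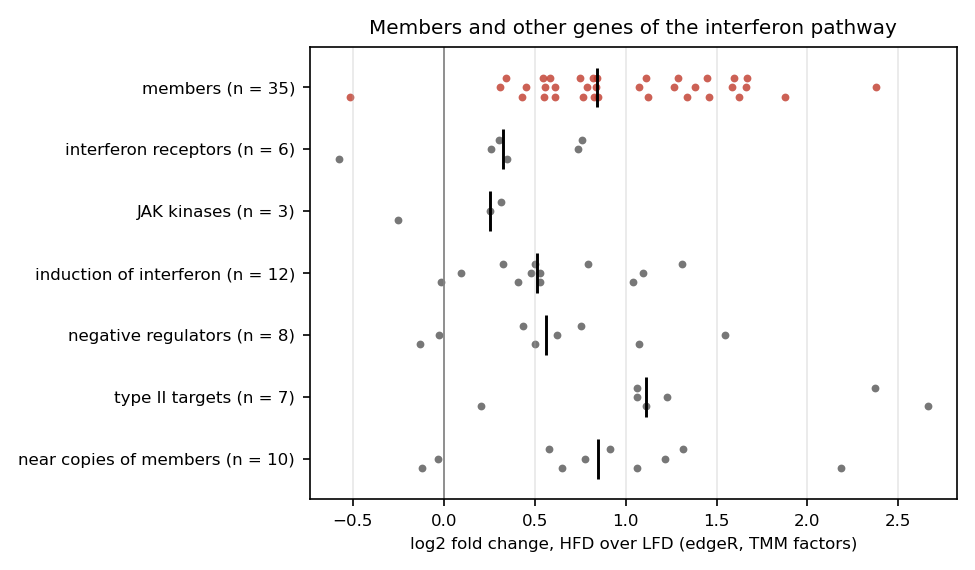
Log2 fold change (HFD over LFD, edgeR) of each tested gene of the members and of 6 other lists of the pathway, with a black bar at the median of each list. The medians are 0.85 for the members, 0.32 for the receptors, 0.26 for the kinases, 0.52 for induction, 0.56 for negative regulators, 1.11 for type II targets and 0.85 for the near copies.

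Markers of immune cells were read beside the members. In bulk tissue, fewer cells of a type and less RNA per cell cannot be told apart. All 11 testable T and NK cell markers were higher in HFD, with a median log2 fold change of 2.28. Of the 11, 8 had an unadjusted p under 0.05 (3.86% of all genes were at such a p and higher). In 9 the diets did not overlap (6.72% of all genes lay fully above). The list was chosen with earlier results of the same mice known, so nothing is read from these shares. With the replicate block 1 of these markers, Gzmb, named after its values were seen, was under an adjusted p of 0.05 (0.0403 in edgeR's quasi-likelihood test, 0.174 without the block). The summed level of the T and NK cell markers was 15.4 to 48.2 TPM in HFD and 1.99 to 14.7 TPM in LFD mice. These transcripts were thus rare in both diets, and Nkg7, a granule protein, was the most abundant. The 12 macrophage markers were divided, with 8 higher and 4 lower and a median of 0.41, and they summed to 1864 to 3918 TPM in HFD and 594 to 4373 TPM in LFD. Lyz2 (lysozyme) was the most abundant of these. LFD replicate 1 had the lowest level of 10 of the 12 macrophage and of all 11 T and NK cell markers, and it was also the lowest for 33 members. HFD replicate 3 was highest for 7 and 9 of them, respectively. LFD replicate 1 was the lowest mouse for 0 of the 12 brown adipocyte and 0 of the 20 muscle markers. In 18 of the 20 muscle markers every HFD mouse lay below every LFD mouse, so that no LFD mouse could be the lowest there.

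Plasmacytoid dendritic cells, which release large amounts of type I interferon, had low marker levels. Of their 6 markers 3 could be tested, the 3 were higher with a median log2 fold change of 1.11, and the sum of all 6 was 2.81 to 13.2 TPM in HFD and 1.48 to 5.65 in LFD. Siglech was the most abundant, and Klk1 had no count in LFD replicate 1. The 5 neutrophil markers summed to 17.9 to 154.0 TPM in HFD and 5.35 to 139.5 TPM in LFD, led by S100a9, and Ly6g had no count in HFD replicates 1 and 2 and LFD replicate 1. B cell markers summed to 2.29 to 5.61 TPM in HFD and 0.70 to 4.75 TPM in LFD, and the median of the 4 tested was 0.31. The 6 endothelial markers had a median log2 fold change of 0.85 and summed to 95.0 to 415.7 TPM in HFD and 118.3 to 236.0 TPM in LFD, led by Pecam1. The part of any of these cells in the members' difference was not tested.

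**Figure D4:**
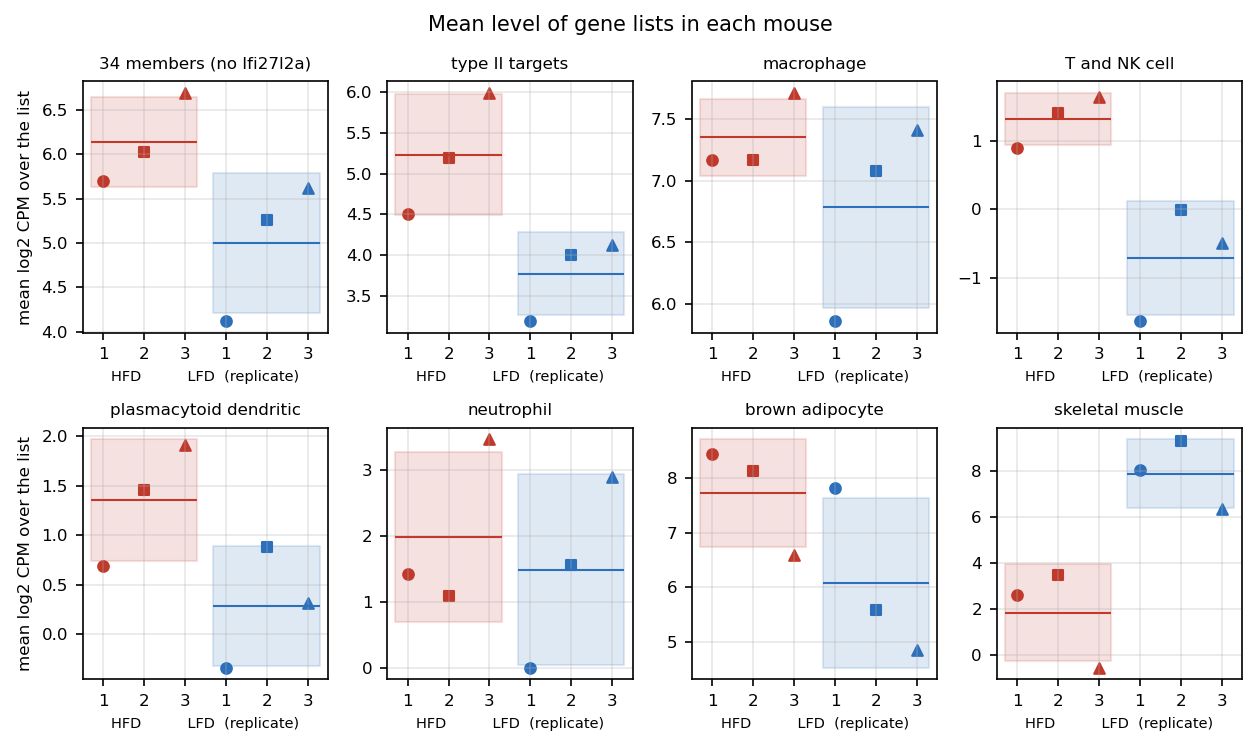
Mean log2 CPM of 8 gene lists in each mouse (points; HFD red, LFD blue, shape by replicate number), with a line at the diet mean and a band of 1 SD over its 3 mice. The 34 members run from 4.12 to 5.62 in LFD and from 5.70 to 6.69 in HFD, and T and NK cell markers from -1.64 to -0.01 in LFD and from 0.90 to 1.65 in HFD.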

How the data were processed

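RNA from BAT of 3 HFD-fed and 3 LFD-fed mice was read from one end over 75 bases. Reads were trimmed by the authors with Trimmomatic 0.36 and quantified with RSEM 1.3.0 on GRCm38.p4 with an Ensembl annotation, and the authors' deposited tables list, per mouse, RSEM's expected count of each of 47729 genes and its TPM. RSEM divides reads that match several genes between them, and TPM divides by the effective length of a gene and by the total of the library, so that abundant mitochondrial RNA lowers the TPM of every other gene. Whether counting used strand is not given in the sources used here.

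Expected counts were rounded, giving 17156991 to 21603487 counts per mouse, and compared in R 4.3.3 with edgeR 4.0.16 (quasi-likelihood test, TMM factors, filterByExpr, diet as the only term, Benjamini-Hochberg adjustment over 17668 genes). The common dispersion was 0.201. Log2 CPM used a prior count of 2. The standard error of a fold change was taken as its absolute value divided by the square root of the test's F statistic. The scripts were tested on simulated data. The p-values measure the spread between these mice. Alternatives were DESeq2 1.42.0, RLE or upper quartile or no factors, mitochondrial genes left out, other filters on low counts, limma 3.58.1 on log2(TPM + 1), the replicate number as a block, each mouse left out, and, chosen after seeing the data, both LFD mice with little Ucp1 left out. Across genes, deviations from the diet means correlated in every same-numbered pair (r = 0.498, 0.229 and 0.522) and at -0.528 to 0.0532 in the other pairs. On this ground the numbers were taken to pair the mice. The deviations of a diet's 3 mice cancel, so the lower values of the other pairs follow in part from the same-numbered ones. Mitochondrial shares fell from replicate 1 to 3 in both diets (22.7%, 16.5% and 8.50% in HFD, 13.8%, 9.12% and 3.87% in LFD). Whether such a shared order of library composition, rather than a pairing, lies behind the correlations was not tested.

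The 35 members and all gene lists were chosen with earlier results of these data known. All members are named; of the other pathway lists, the text names the detected ligands, the receptors, the JAK kinases and in each further list the 3 tested genes with the largest absolute log2 fold change; of the marker lists, genes with no count and the most abundant gene. One gene of the pathway is not reported here. Positions and overlaps are from GENCODE M21 (GRCm38), promoter windows from RefSeq (GRCm38.p6). A count of 0 was taken to allow 3 counts.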

Additional observations from a re-analysis of the deposited data

How the results depend on the processing

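In the alternative fits planned at the start the number of members higher in HFD was 34, except for 33 without LFD replicate 1. Their median log2 fold change was 0.55 to 1.34 when 1 mouse was left out and 0.70 to 1.00 otherwise. DESeq2 called 2 members where edgeR called 0, and every other fit, each left-out mouse included, called 0. At an unadjusted p under 0.05 there were 14 members at first (3.86% of all genes were at such a p and higher). There were 3 without normalization factors (2.84% of all genes), 7 with upper quartile factors (3.59%) and 1 on the log2(TPM + 1) scale (1.68%). The replicate block gave 28 (8.75%), and the fits that leave out 1 mouse gave 4 to 21 (2.17% to 7.7%). Members without overlap were 17 at first, where 15.9% of all genes did not overlap in either direction. They were 21 with RLE factors (15.7% of all genes) and 21 with DESeq2 (12.3%). They were 10 with upper quartile factors (15.5%), 2 without normalization factors (11.9%) and 1 in TPM (13.2%). When 1 mouse was left out they were 17 to 28 (19.5% to 35%). The other pathway genes at an unadjusted p under 0.05, 7 at first, were 11 with DESeq2 and 11 with no filter on low counts. In these 2 fits 3.49% and 3.27% of all genes were at such a p and higher. The other pathway genes were 4 without normalization factors, 15 with the replicate block, 2 on the log2(TPM + 1) scale, and 2 to 13 when 1 mouse was left out. The shares of all genes in those fits are given above. The replicate block brought Cmpk2, Rsad2, Cxcl10, Gzmb and 14 muscle markers under an adjusted p of 0.05 and changed no other call of a listed gene. Over all genes, the split at an unadjusted p under 0.05 was 682 higher and 1169 lower at first, 296 and 1114 on the log2(TPM + 1) scale and 1546 and 1548 with the replicate block. Leaving out LFD replicates 2 and 3 together, chosen after seeing the data, gave a median of 1.99, 29 members at that p, 35 without overlap (34 above and Ifi27l2a below) and 25 other pathway genes. By construction that fit rests on 1 LFD mouse, and 74.6% of all genes did not overlap in it. Of 560 values of single members, 531 stayed within 1 SD of the spread between mice of a diet, and the other 29 all came from that fit. The sign changed in 1, Oas2 without LFD replicate 1. With a pseudocount of 0.1 in place of 1, the median difference in TPM was 0.74 in place of 0.70. The cause of the other shifts was not tested. With 3 mice a diet, a standard error gives the precision of a fold change within 1 fit only. It covers neither the choice of the members on this same contrast, which can enlarge their fold changes, nor the shifts between fits.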

Other observations

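Ifi27, a relative of Ifi27l2a that was singled out after its values were seen, did not rank the mice as most members did. It stood at 1144, 1158 and 445 TPM in HFD replicates 1, 2 and 3 and at 1052, 572 and 212 TPM in LFD replicates 1, 2 and 3. LFD replicate 1 was thus among the higher mice for Ifi27 and for Ifi27l2a, while it was the lowest for 33 members. Ido1, an enzyme of tryptophan breakdown that interferon gamma induces, was the single type II target too low to be tested, with 5, 9 and 18 counts in HFD replicates 1, 2 and 3 and 3, 6 and 1 counts in LFD replicates 1, 2 and 3.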
